A study of Mus musculus with 35 samples.

Results

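The 10 genes described here belong to the antigen presentation system of the mouse major histocompatibility complex (MHC). They were chosen by name, with no threshold on a measured value, as main class I and class II genes and their partners, out of 52636 genes counted in the series. H2-K1, H2-D1, H2-Q4 and H2-T23 are class I genes, B2m codes for their shared light chain, H2-Aa, H2-Ab1, H2-Eb1 and H2-Ea-ps are class II genes, and Cd74 codes for the invariant chain that escorts class II molecules. RNA sequencing was done on cells laser-captured from the basolateral amygdala, a brain region that weighs emotional value, of female mice of 2 strains. C57BL/6J is an inbred strain whose MHC is of haplotype b, and B6D2F1N mice are first-generation hybrids of C57BL/6 and DBA/2, so they carry haplotype b beside haplotype d.

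The 35 libraries came from 8 C57BL/6J and 11 B6D2F1N mice, kept either in standard housing or in standard housing with access to an enriched playground for 1 h per day from postnatal day 77. The anterior portion gave 16 libraries: C57BL/6J standard 4, C57BL/6J enriched 2, B6D2F1N standard 5 and B6D2F1N enriched 5. The posterior portion gave 19 libraries: 4, 4, 5 and 6 in the same order. All mice of every group were food restricted and lived with mice of their own strain. All were trained on a touchscreen discrimination task before a cognitive judgment bias test, so no group stands for untrained animals. Training began on postnatal day 70 and lasted 37 to 90 days, depending on how fast a mouse learned. The study describes the inbred mice as slower to learn and older than the hybrids, with neither difference significant. It left out mice that failed to learn the task. Age, training length and this selection were not part of any fit here. Their part in the strain differences was not tested. The bregma distances given in the study's methods run opposite to the names of the portions, and the names are used here as labelled. Library totals ran from 16938534 to 27352623 counts (median 21409708). B6D2F1N standard mouse 1 had 0 counts of Xist, a transcript of the inactive X chromosome, in both of its libraries, against 1191 to 4831 in the other 33 libraries, which goes against its female label, so results that rest on it are given with and without it. Captured cells included glia and vessels: summed over 10 microglial markers the libraries held 533 to 1341 CPM (counts scaled to library size), over 7 endothelial markers 212 to 723 CPM, and over 5 excitatory neuron markers 1134 to 5631 CPM.

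MHC class I molecules sit on nearly every nucleated cell and show peptides made inside the cell to CD8 T cells; their heavy chain is stable only with B2m. MHC class II molecules are pairs of an alpha and a beta chain found mainly on dendritic cells, B cells and macrophages, where they show peptides taken up from outside to CD4 T cells. In healthy brain, class I is low in neurons and glia and higher in endothelium, and class II is rare in the tissue itself and richer at the borders (meninges, choroid plexus and perivascular space). The 2 parental haplotypes differ in sequence across the complex, and haplotype b is known to lack a working H2-Ea because a deletion removed its promoter, so mice of this haplotype make no I-E molecule.

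Positions are given in mouse build GRCm38 from the GENCODE annotation. In the complex itself, on chromosome 17, H2-K1 lies at chr17:33996017-34000347 on the minus strand, H2-Ab1 at chr17:34257689-34269419 on the plus strand, H2-Aa at chr17:34282744-34287823 on the minus strand, H2-Eb1 at chr17:34305867-34316674 on the plus strand and H2-Ea-ps at chr17:34341959-34344645 on the minus strand. Further along are H2-D1 at chr17:35262730-35267499 and H2-Q4 at chr17:35379617-35385290, both on the plus strand, and H2-T23 at chr17:36029773-36032855 on the minus strand. B2m lies at chr2:122147686-122153083 on the plus strand. H2-Ea-ps is annotated as a polymorphic pseudogene and the other 9 as protein coding.

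The classical class I genes are close copies, which bears on every count of them. A pair of stretches of 72 bases, the length of a read, show how close and how far apart they are, in coding sequence of the C57BL/6J reference and on the genes' own strand. In exon 4, which codes for the membrane-proximal domain, the stretches at chr17:33997362-33997433 (H2-K1), chr17:35265911-35265982 (H2-D1) and chr17:35382985-35383056 (H2-Q4) differ at a single place, marked by a capital.
H2-K1: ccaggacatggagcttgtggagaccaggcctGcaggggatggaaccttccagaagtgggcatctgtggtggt
H2-D1: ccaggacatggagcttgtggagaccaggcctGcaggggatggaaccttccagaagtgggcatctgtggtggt
H2-Q4: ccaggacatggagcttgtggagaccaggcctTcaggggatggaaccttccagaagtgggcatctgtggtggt
H2-D1 had 0 and H2-Q4 1 difference from H2-K1 here, so a read from this stretch cannot be placed between H2-K1 and H2-D1 by its bases. In exon 3, which codes for part of the peptide groove, the stretches at chr17:33999330-33999401 (H2-K1), chr17:35263984-35264055 (H2-D1) and chr17:35380506-35380577 (H2-Q4) were the most different of the 609 stretches of this length that lie in 1 exon of all 3 genes, with capitals again at the places that differ.
H2-K1: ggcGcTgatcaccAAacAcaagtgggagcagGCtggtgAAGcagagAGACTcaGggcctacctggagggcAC
H2-D1: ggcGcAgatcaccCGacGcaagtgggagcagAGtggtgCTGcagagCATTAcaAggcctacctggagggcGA
H2-Q4: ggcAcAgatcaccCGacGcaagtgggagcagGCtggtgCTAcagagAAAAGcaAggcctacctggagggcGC
H2-D1 differed from H2-K1 at 16 bases and H2-Q4 at 13 bases. Over the whole coding sequence H2-K1 was 91.39% identical to H2-D1 and 90.11% identical to H2-Q4. Of all read-length stretches of each transcript, those within 2 mismatches of another annotated transcript made up 23.0% for H2-K1, 20.7% for H2-D1, 49.5% for H2-T23 (H2-T-ps in most of them) and 60.8% for H2-Q4 (H2-Q6 more often than any other gene). For H2-Ea-ps, H2-Aa, H2-Ab1, H2-Eb1, B2m and Cd74 the share was 0%. H2-Q4 also shares 496 exon bases with Gm11131 on the other strand, and whether counting used strand is not given in the sources used here.

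The DBA/2 sequence of these genes was not used here. Reads were aligned to the C57BL/6J genome. In B6D2F1N libraries, reads of haplotype d may thus fail to align or align to a neighbouring copy. Such losses and fewer RNA molecules cannot be told apart. Nor can more RNA of a gene and haplotype d reads of a neighbouring copy that aligned to it. Reads without a unique alignment made up a median of 8.25% of reads in C57BL/6J libraries (6.56 to 10.9%) and 7.97% in B6D2F1N libraries (6.23 to 10.3%), ranges that overlap almost wholly. In bulk samples, fewer cells of a type and less RNA per cell cannot be told apart either.

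Promoters are shown for 4 members whose counts are compared between strains, from 250 bases before to 50 after the start of transcription, as RefSeq gives them on GRCm38.p6 and on the gene's own strand. H2-K1 (chr17:34000298-34000597, minus strand) and H2-Q4 (chr17:35379367-35379666, plus strand) stand for class I, and H2-Aa (chr17:34287774-34288073, minus strand) and H2-Eb1 (chr17:34305617-34305916, plus strand) for class II. Capitals mark matches, on either strand, to 4 motifs: GATTGG (the Y box core, or CCAATC on the other strand), GGGGATTCC (enhancer A), TTTCACTT (the core of the interferon-stimulated response element) and TAGCAAC (the X box core).
H2-K1: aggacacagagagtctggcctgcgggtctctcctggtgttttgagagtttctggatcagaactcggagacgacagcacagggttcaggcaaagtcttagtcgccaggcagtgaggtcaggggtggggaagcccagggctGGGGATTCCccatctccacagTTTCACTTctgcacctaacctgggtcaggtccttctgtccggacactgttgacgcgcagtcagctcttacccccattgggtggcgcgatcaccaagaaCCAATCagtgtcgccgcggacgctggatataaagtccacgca
H2-Q4: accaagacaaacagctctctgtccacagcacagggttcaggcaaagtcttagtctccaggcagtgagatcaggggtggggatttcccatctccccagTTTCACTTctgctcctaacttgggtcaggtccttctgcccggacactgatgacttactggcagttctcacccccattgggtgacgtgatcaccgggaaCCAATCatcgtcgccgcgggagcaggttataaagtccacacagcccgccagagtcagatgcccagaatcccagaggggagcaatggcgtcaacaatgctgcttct
H2-Aa: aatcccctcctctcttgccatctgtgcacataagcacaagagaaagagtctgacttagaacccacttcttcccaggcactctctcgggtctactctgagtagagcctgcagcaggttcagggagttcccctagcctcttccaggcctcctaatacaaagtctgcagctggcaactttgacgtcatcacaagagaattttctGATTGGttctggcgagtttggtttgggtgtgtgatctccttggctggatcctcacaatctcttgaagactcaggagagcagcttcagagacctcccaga
H2-Eb1: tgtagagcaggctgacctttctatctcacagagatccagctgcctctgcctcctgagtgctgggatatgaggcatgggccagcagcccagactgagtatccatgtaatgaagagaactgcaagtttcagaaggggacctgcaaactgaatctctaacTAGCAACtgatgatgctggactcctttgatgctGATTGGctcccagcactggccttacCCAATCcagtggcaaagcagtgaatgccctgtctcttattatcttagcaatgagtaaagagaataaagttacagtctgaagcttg
No matches overlapped in these 4 sequences. RefSeq promoters were matched for 7 members: H2-K1, H2-D1, H2-Q4, H2-T23, H2-Aa, H2-Eb1 and B2m. GATTGG was found in 7 of 7, against 16.11% of 32851 mouse promoters of the same length. GGGGATTCC was found in H2-K1 and H2-D1 (0.2496% of all promoters), TTTCACTT in H2-K1, H2-D1 and H2-Q4 (1.601%) and TAGCAAC in H2-Eb1 (3.659%). These matches describe letters in a window of the C57BL/6J reference only.

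B2m and the classical heavy chain genes were the most abundant members and H2-Ea-ps the least. Per kilobase of exon, C57BL/6J anterior libraries held means of 219 CPM of B2m, 60.2 of H2-D1, 20.8 of H2-K1, 7.16 of Cd74, 5.66 of H2-T23, 1.72 of H2-Ab1, 1.10 of H2-Eb1, 0.297 of H2-Aa, 0.0458 of H2-Q4 and 0 of H2-Ea-ps (n = 6). In B6D2F1N anterior libraries the same order held for the first 4, with 162 CPM per kilobase of B2m, 57.8 of H2-D1, 14.2 of H2-K1 and 13.8 of Cd74 (n = 10). There H2-Ab1 (3.79) and H2-T23 (3.61) followed, then H2-Eb1 (1.33), H2-Q4 (0.904), H2-Aa (0.621) and H2-Ea-ps (0.287). From Cd74 down to H2-Q4 in C57BL/6J, and from H2-K1 down to H2-Ea-ps in B6D2F1N, neighbours lay closer than the larger of their SDs, except H2-T23 and H2-Ab1 in C57BL/6J (SD 1.26 and 1.85 CPM per kilobase) and H2-T23 and H2-Eb1 in B6D2F1N (SD 1.89 and 1.68). The gap between B2m and H2-D1 exceeded the SD of both genes in both strains.

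The first question was which members differ between the strains. Over both housings, H2-K1 and B2m were lower in B6D2F1N and H2-Q4 was higher, in both portions, by exact permutation tests over mice. These tests were not adjusted and were run for members alone, so no share of all genes stands beside them. By the same test H2-T23 was lower in the anterior portion alone. H2-D1, Cd74 and the class II genes gave no difference that passed by it over both housings. Within standard posterior libraries H2-D1 was lower in B6D2F1N (exact permutation p = 0.0317, n = 4 and 5). By the stricter test across all genes, edgeR's quasi-likelihood F test on the mice of both housings with housing as a covariate (adjusted p at most 0.05), 1 of 10 members passed in the anterior portion, H2-Q4. In this comparison 0.615% of 26353 genes passed. Here 4 members (H2-K1, H2-Q4, H2-Ea-ps and B2m) had an unadjusted edgeR p under 0.05, as did 2020 genes in all. In the posterior portion 0 of 10 passed, where 0.858% of 27871 genes did; 4 members (H2-K1, H2-Q4, H2-Ea-ps and B2m) had an unadjusted p under 0.05 there, as did 3064 genes in all, and DESeq2 called 2 members, H2-K1 and H2-Q4, and 532 genes in all where edgeR called 239. Leaving out H2-Ea-ps, which was at 0 in one strain, 6 of 9 members lay above 0 in the anterior portion (median log2 difference 0.35, all genes 0.0046) and 1 of 9 in the posterior portion (median -0.37, all genes 0.023). With H2-Ea-ps at its lower bound the medians were 0.61 and -0.36. Differences are given as B6D2F1N over C57BL/6J throughout.

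H2-K1, a classical class I heavy chain gene, was lower in hybrids in both portions. Anterior C57BL/6J libraries ran from 48.8 to 71.7 CPM (median 62.1, n = 6) and B6D2F1N libraries from 29.7 to 57.7 CPM (median 37.7, n = 10). Posterior C57BL/6J libraries ran from 44.1 to 77.3 CPM (median 63.5, n = 8) and B6D2F1N libraries from 18.3 to 75.0 CPM (median 37.3, n = 11). The groups overlapped in both portions: 3 anterior hybrid libraries lay above the lowest C57BL/6J one, and in the posterior portion B6D2F1N enriched mouse 3 (75.0 CPM) lay far above the other hybrids. Means were 61.3 ± 8.07 against 41.7 ± 11.3 CPM (SD) in the anterior portion, 68.0% of the C57BL/6J mean, and 63.0 ± 10.4 against 38.9 ± 14.8 CPM in the posterior portion, 61.8%. The two-sided exact permutation test of log2 CPM gave p = 0.00375 anterior (n = 6 and 10) and p = 0.0013 posterior (n = 8 and 11), among 20 such tests of 10 members in 2 portions and not adjusted. In edgeR the log2 difference was -0.55 (SE 0.18, adjusted p = 0.333) anterior and -0.73 (SE 0.18, adjusted p = 0.0602) posterior. Without the mouse with 0 Xist counts the posterior difference was -0.80 (adjusted p = 0.0435), and without B6D2F1N enriched mouse 3 it was -0.83 (adjusted p = 0.00576). Within standard housing the exact permutation p was 0.0317 in each portion (n = 4 and 5), and within enriched housing it was 0.286 anterior (n = 2 and 5, smallest possible 0.0952) and 0.0667 posterior (n = 4 and 6).

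B2m, on another chromosome than the MHC, was lower in hybrids too. Anterior C57BL/6J libraries ran from 150 to 219 CPM (median 190, n = 6) and B6D2F1N libraries from 108 to 191 CPM (median 139, n = 10). Posterior C57BL/6J libraries ran from 123 to 193 CPM (median 154, n = 8) and B6D2F1N libraries from 60.5 to 161 CPM (median 130, n = 11). The groups overlapped: 2 of 10 anterior and 6 of 11 posterior hybrid libraries lay above the lowest C57BL/6J one. The B6D2F1N mean was 74.0% of the C57BL/6J mean anterior and 77.9% posterior, with exact permutation p = 0.00325 (n = 6 and 10) and p = 0.0113 (n = 8 and 11). In edgeR the log2 differences of -0.44 (SE 0.14, adjusted p = 0.332) and -0.37 (SE 0.15, adjusted p = 0.351) did not pass. Within enriched housing the exact permutation p of B2m was 0.286 anterior (n = 2 and 5, smallest possible 0.0952) and 0.39 posterior (n = 4 and 6). Endothelial markers were also lower in posterior hybrid libraries, with 7 of 7 below 0 (median -0.34). Their median summed level was 465.9 CPM in C57BL/6J (339 to 705) against 302 CPM in B6D2F1N (212 to 491). Microglial markers were lower there too, with 10 of 10 below 0 (median -0.29) and 899 CPM (797 to 1122) against 681 CPM (533 to 954). After subtraction of group means over the 35 libraries, the endothelial list correlated at r = 0.464 with H2-K1 and 0.389 with B2m. The microglial list did so at 0.169 and 0.125. Meningeal fibroblast markers had a median summed level of 1156 CPM (220.2 to 1758) in posterior C57BL/6J libraries against 474 CPM (47.0 to 1677) in hybrid ones, with 3 of 5 markers below 0 (median -0.47). In standard housing these sums were 926 to 1758 CPM in the 4 C57BL/6J libraries and 76.3, 90.2, 47.0 and 86.9 CPM in hybrid mice 2 to 5, with 1677 CPM in hybrid mouse 1. In the anterior portion 13 of 14 interferon response genes lay below 0 (median -0.48), with a median summed level of 124 CPM in C57BL/6J (113 to 166) against 99.5 CPM in B6D2F1N (71.3 to 118), as did 9 of 10 microglial markers (median -0.23) and 5 of 7 endothelial markers (median -0.16). None of these lists had a gene called. Choroid plexus and ependymal markers went the other way, above 0 in 7 of 7 in each portion (median 1.75), with 1 called in the posterior portion. Their posterior median sum was 682 CPM in C57BL/6J (131 to 1495) against 1820 CPM in B6D2F1N (368 to 14194). The part of all these lists in the strain differences was not tested. Where heavy chain counts were set against B2m counts in the same library, the H2-K1 to B2m ratio was 0.331 ± 0.0759 in C57BL/6J and 0.301 ± 0.0677 in B6D2F1N in the anterior portion and 0.417 ± 0.104 and 0.323 ± 0.0977 in the posterior portion, in both less apart than either SD.

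H2-D1, the other classical heavy chain gene, gave no difference that passed over both housings. Anterior C57BL/6J libraries ran from 54.4 to 282 CPM (median 156) and B6D2F1N libraries from 93.4 to 250 CPM (median 134), so the hybrids lay inside the C57BL/6J range. Posterior C57BL/6J libraries ran from 80.0 to 173 CPM (median 119) and B6D2F1N libraries from 50.8 to 157 CPM (median 95.3). Hybrids held 96.0% of the C57BL/6J mean in the anterior portion and 78.2% in the posterior portion. The edgeR log2 difference was 0.05 (SE 0.27, adjusted p = 1) anterior and -0.35 (SE 0.19, adjusted p = 0.539) posterior, and the exact permutation p was 0.871 and 0.0799, with 0.0317 in the posterior portion within standard housing (n = 4 and 5). The H2-K1 to H2-D1 count ratio, in which library size cancels, was 0.477 ± 0.232 in C57BL/6J against 0.292 ± 0.089 in B6D2F1N (anterior, n = 6 and 10) and 0.531 ± 0.136 against 0.410 ± 0.114 (posterior, n = 8 and 11). Whether the strain differences of H2-K1 and H2-D1 differ from each other was not tested.

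H2-T23 codes for Qa-1, a class I molecule of limited variation that presents signal peptides of other class I molecules to natural killer cells. Anterior C57BL/6J libraries ran from 13.0 to 22.9 CPM (median 16.1) and B6D2F1N libraries from 3.12 to 18.9 CPM (median 8.89). Posterior libraries ran from 3.602 to 8.34 CPM (median 6.29) and from 1.68 to 9.87 CPM (median 5.25). The hybrid range reached lower in both portions and higher in the posterior portion. The exact permutation p was 0.0322 anterior (n = 6 and 10) and 0.288 posterior (n = 8 and 11), the anterior one was 0.0952 within standard housing (n = 4 and 5), and the edgeR log2 differences were -0.60 (SE 0.32, adjusted p = 0.731) and -0.28 (SE 0.30, adjusted p = 0.841).

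**Figure D1:**
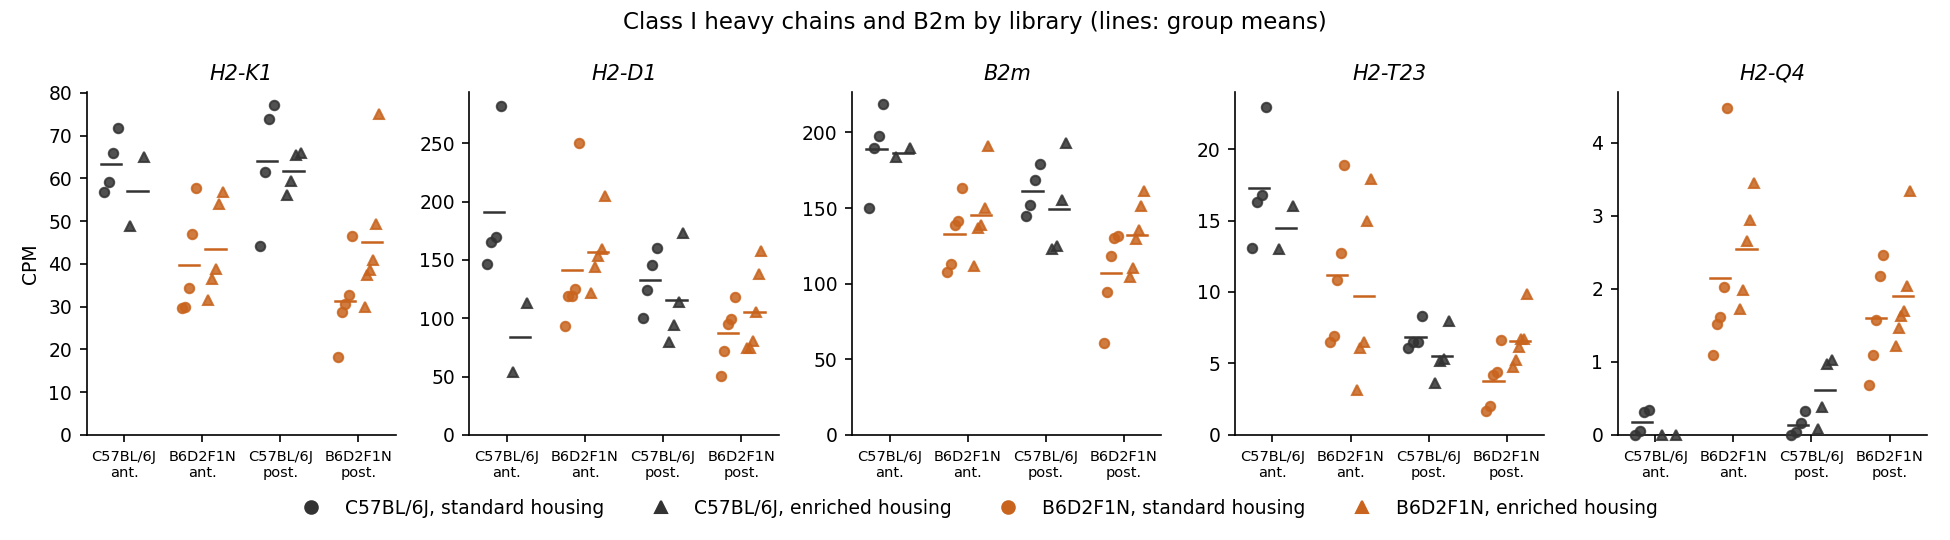
CPM in every library of the class I genes H2-K1, H2-D1, H2-Q4 and H2-T23 and of B2m, by strain, housing and portion, with 1 point per library and short lines at group means. Points of H2-K1 and B2m sit lower in most B6D2F1N libraries, points of H2-D1 overlap, and points of H2-Q4 sit near 0 in C57BL/6J.

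H2-Q4, a non-classical class I gene, was higher in hybrids and was the only member that edgeR called between the strains across all genes. In anterior C57BL/6J libraries its counts were 1, 6, 7 and 0 in standard housing and 0 and 0 in enriched housing. In anterior B6D2F1N libraries they were 92, 32, 21, 34 and 40 in standard housing and 34, 66, 58, 60 and 51 in enriched housing. No hybrid library fell to the C57BL/6J range, so the groups did not overlap. In posterior C57BL/6J libraries the counts were 4, 1, 0 and 7 in standard and 2, 8, 24 and 18 in enriched housing. In posterior B6D2F1N libraries they were 44, 36, 60, 16 and 25 in standard housing and 39, 27, 70, 44, 33 and 26 in enriched housing. Here the 2 highest C57BL/6J libraries, both from enriched housing (1.03 and 0.968 CPM), lay above 1 hybrid library, standard mouse 4 (0.684 CPM). Within each housing the posterior groups did not overlap, with exact permutation p = 0.0159 in standard housing (n = 4 and 5) and p = 0.00952 in enriched housing (n = 4 and 6), each the smallest that the design allows.

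In the anterior portion the B6D2F1N mean of H2-Q4, 2.35 CPM, was 19.7-fold that of C57BL/6J, 0.119 CPM, and in the posterior portion 1.76 CPM was 4.69-fold 0.375 CPM. The anterior C57BL/6J mean lies below the level of 3 counts in each library (0.156 CPM) and came from 7, 6 and 1 counts in 3 of 6 libraries, and the ratio was 31.2 without C57BL/6J standard mouse 2 and 29.8 without mouse 3. The edgeR log2 difference was 4.47 (SE 0.95, adjusted p = 0.0227) anterior and 2.46 (SE 0.64, adjusted p = 0.0747) posterior. DESeq2 gave an adjusted p of 1.75e-08 anterior and 0.00022 posterior. The exact permutation p was 0.00025 anterior, the smallest this design can give (n = 6 and 10), and 0.000132 posterior (n = 8 and 11). The anterior call was lost when some single mice were left out, with the log2 difference still above 4. Without B6D2F1N standard mouse 1, the mouse with 0 Xist counts, the log2 difference was 4.23 (adjusted p = 0.0788). Without C57BL/6J standard mouse 1 it was 4.34 (adjusted p = 0.0701), and without C57BL/6J enriched mouse 1 or 3 it was 4.06 or 4.07 (adjusted p = 0.0714 and 0.0698). It was highest without C57BL/6J standard mouse 2 or 3, at 4.96 and 5.00 (adjusted p = 0.0184 and 0.0234). The posterior value was 2.74 (adjusted p = 0.049) without C57BL/6J enriched mouse 3. Since 60.8% of its read-length stretches have a near copy elsewhere, reads of H2-Q6, H2-D1 or Gm11131 in H2-Q4 counts were not tested for. Reads of other haplotype d class I genes in its hybrid counts were not tested for either.

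Other class I genes were read from a list of 19, of which 16 were tested in the anterior portion. H2-Q10, known as a secreted class I gene of liver, was the 1 gene called: it rose from 0.0283 to 2.11 CPM, a log2 difference of 6.22 (SE 1.01, adjusted p = 0.00132). The C57BL/6J mean lies below the level of 3 counts in each library (0.156 CPM), with at most 2 counts in a library and 0 in 4 of 6, so the size of this difference rests on few counts. All 10 hybrid libraries lay between 0.658 and 6.17 CPM, and the highest of 6 C57BL/6J libraries was 0.114 CPM. In the posterior portion the H2-Q10 difference was 1.85 (SE 0.75, adjusted p = 0.333) and 0 of 15 genes on the list were called by edgeR. The median log2 difference of the list was 0.28 anterior and -0.01 posterior. Near copies of these genes elsewhere were not counted. Haplotype d reads of other class I genes in the hybrid counts, H2-Q10 among them, were not tested for.

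H2-Ea-ps, the class II alpha chain gene that is silent in haplotype b, was counted in hybrids alone. All 14 C57BL/6J libraries had 0 counts, in both portions and housings. B6D2F1N libraries had 0, 24, 0, 27 and 11 counts in the standard anterior group, 0 in all 5 of the enriched anterior group, 0, 2, 6, 0 and 0 in the standard posterior group and 18, 0, 88, 0, 0 and 7 in the enriched posterior group. So 8 of 21 hybrid libraries held reads of this gene, from 7 of 11 mice, against 0 of 8 C57BL/6J mice, and a two-sided Fisher's exact test over mice gave p = 0.0128. By portion, 3 of 10 against 0 of 6 mice gave p = 0.25 and 5 of 11 against 0 of 8 gave p = 0.0445 in the same exact test.

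Hybrid means were 0.298 CPM anterior and 0.506 CPM posterior. Against the limit that a count of 0 allows, taken as 3 counts in each C57BL/6J library (a mean of 0.156 and 0.133 CPM), H2-Ea-ps was at least 1.9-fold higher in hybrids in the anterior portion and at least 3.79-fold higher in the posterior portion. The posterior bound rested on 1 library and was 1.04-fold without B6D2F1N enriched mouse 3, and the anterior bound was 1.2-fold without B6D2F1N standard mouse 4. These floors cover counting error only. The test across all genes did not call it (edgeR adjusted p = 0.487 anterior and 0.151 posterior).

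The most H2-Ea-ps counts came from hybrid libraries with many counts of H2-Aa. Summed over libraries, B6D2F1N held 183 counts of H2-Ea-ps beside 1051 of H2-Aa, the alpha chain gene of I-A, a ratio of 0.174, and C57BL/6J held 0 beside 519. Of the libraries with at least 20 counts of H2-Aa, 7 of 9 hybrid libraries and 0 of 5 C57BL/6J libraries had any H2-Ea-ps, and 1 of the 8 hybrid libraries with H2-Ea-ps, enriched posterior mouse 6, held 11 counts of H2-Aa. The C57BL/6J library richest in H2-Aa held 281 of its counts and none of H2-Ea-ps, and the hybrid library richest in it held 348 and 88. H2-Eb1, whose product would pair with that of H2-Ea, was counted in both strains.

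**Figure D2:**
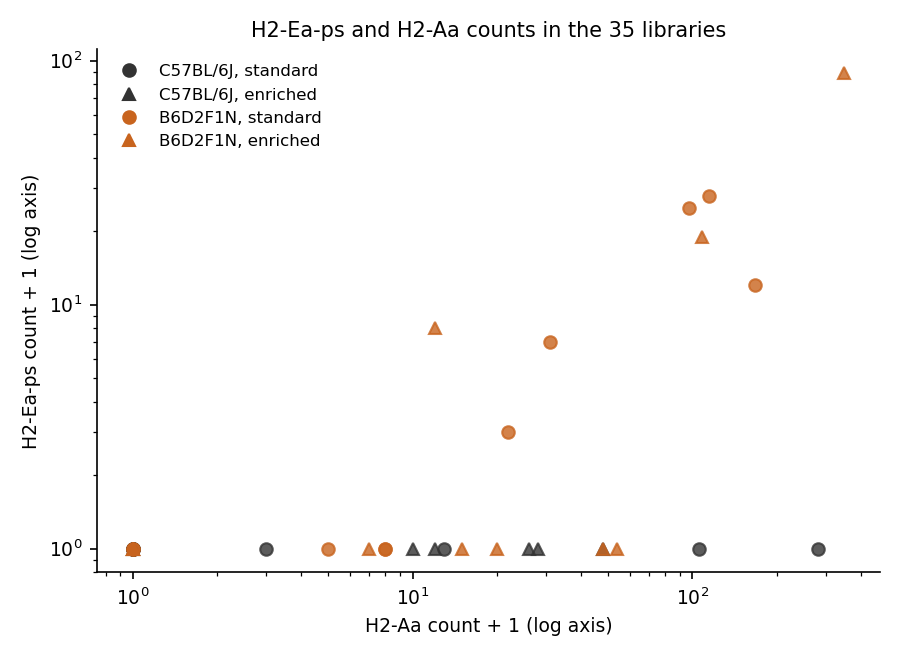
Counts of H2-Ea-ps against counts of H2-Aa, each plus 1 on log axes, with 1 point per library by strain and housing. C57BL/6J libraries lie at 0 counts of H2-Ea-ps up to 281 H2-Aa counts, and 8 of 21 B6D2F1N libraries lie above it.

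H2-Aa, H2-Ab1, H2-Eb1 and Cd74 varied widely among mice, and their ranges overlapped between strains in both portions. H2-Ab1, the beta chain gene of I-A, ran from 0 to 12.9 CPM in anterior C57BL/6J libraries (median 2.92) and from 0.0445 to 24.8 CPM in anterior B6D2F1N libraries (median 7.02). In the posterior portion it ran from 0.468 to 39.5 CPM (median 5.75) and from 2.59 to 42.3 CPM (median 3.58). Both strains had libraries at the bottom and near the top of the scale. H2-Aa ran from 0 to 4.80 and from 0 to 8.43 CPM anterior, and from 0 to 11.6 and from 0 to 16.6 CPM posterior. H2-Eb1, the beta chain gene of I-E, ran from 0.741 to 5.57 and from 0 to 9.49 CPM anterior, and from 0 to 12.0 and from 0 to 18.0 CPM posterior.

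Cd74, which lies outside the MHC at chr18:60803848-60812652 on the plus strand, had the highest CPM of the 4. It ran from 2.64 to 29.8 CPM in anterior C57BL/6J libraries (median 7.39) and from 2.05 to 63.0 CPM in anterior B6D2F1N libraries (median 16.1). In the posterior portion it ran from 1.83 to 61.9 CPM (median 8.20) and from 1.43 to 106 CPM (median 8.69). The ranges overlapped, with 3 of 10 anterior and 1 of 11 posterior hybrid libraries above every C57BL/6J library and 1 in each portion below. Its edgeR log2 difference was 0.88 (SE 0.53, adjusted p = 0.827) anterior and -0.02 (SE 0.72, adjusted p = 0.997) posterior. H2-Ab1 gave 1.09 (SE 0.84) and -0.40 (SE 0.77), H2-Aa 0.92 (SE 1.17) and -0.46 (SE 1.53), and H2-Eb1 0.35 (SE 0.97) and -0.65 (SE 1.16), with adjusted p from 0.919 to 1. The anterior values of all 4 were positive and the posterior ones negative, each within 2 standard errors of 0. These signs were not stable: posterior CPM means were higher in hybrids for H2-Aa (2.43 against 1.99), H2-Eb1 (3.00 against 2.601) and Cd74 (19.3 against 15.1), the mean log2 CPM of H2-Eb1 was lower in anterior hybrids by -1.13, and leaving out single libraries turned all 4 posterior values and the anterior H2-Eb1 value.

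The 4 genes moved together from library to library. After subtraction of group means, log2 CPM correlated at r of 0.561 to 0.855 over the 35 libraries among the 4, at 0.263 to 0.599 among H2-K1, H2-D1, H2-T23 and B2m, and at 0.0305 to 0.513 between the sets. These are descriptions over libraries that share mice and processing. Among 16022 genes of at least 1 CPM, those with a pattern most like that of Cd74 were H2-Aa (r = 0.855), H2-Ab1 (0.836), H2-Eb1 (0.74), Haghl (0.719) and Zbtb7b (0.706). For H2-K1 they were Kcnc4 (0.76), Plbd2 (0.75), Tmc6 (0.749), Slc20a2 (0.734) and Apcdd1 (0.729), none of them an MHC gene.

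**Figure D3:**
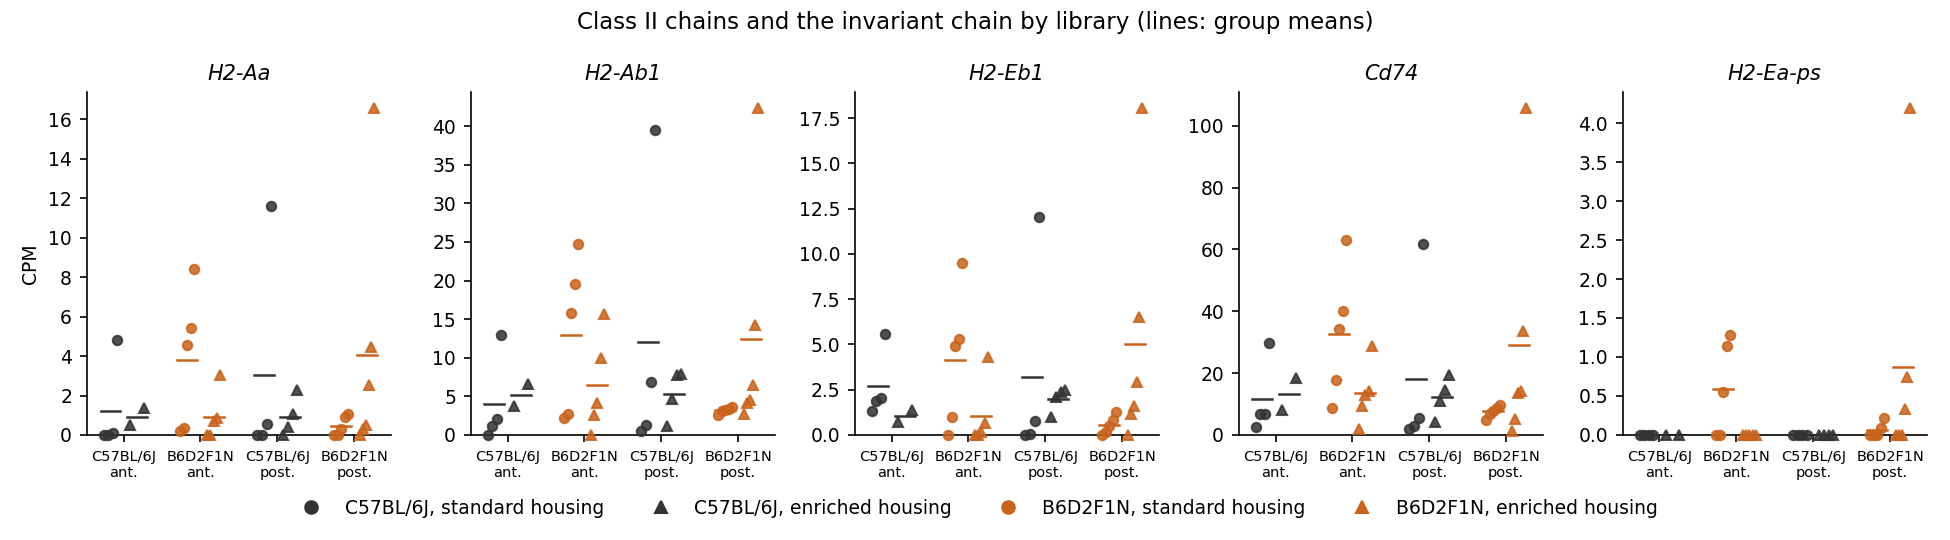
CPM in every library of H2-Aa, H2-Ab1, H2-Eb1, Cd74 and H2-Ea-ps, by strain, housing and portion, with 1 point per library and short lines at group means. A few libraries of either strain stand high for H2-Aa, H2-Ab1, H2-Eb1 and Cd74 at once, up to 106 CPM of Cd74, and H2-Ea-ps is above 0 in B6D2F1N only.

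Summed over H2-Aa, H2-Ab1, H2-Eb1 and Cd74, anterior libraries ran from 4.49 to 53.1 CPM in C57BL/6J (median 12.2) and from 2.09 to 106 CPM in B6D2F1N (median 23.1). Posterior libraries ran from 2.38 to 125 CPM (median 15.2) and from 7.96 to 183 CPM (median 13.7). The highest was B6D2F1N enriched posterior mouse 3 (183 CPM), followed by C57BL/6J standard posterior mouse 1 (125 CPM) and B6D2F1N standard anterior mouse 5 (106 CPM). These 3 libraries differed in how much choroid plexus and ependymal RNA they held: the sum of 7 markers was 14194 CPM in the first, 1470 CPM in the next and 27.5 CPM in the last. Over all libraries of a portion, log2 of the class II sum and log2 of this marker sum correlated at r = 0.659 in posterior B6D2F1N (n = 11), 0.445 in posterior C57BL/6J (n = 8) and 0.506 in both, and at -0.317 in anterior B6D2F1N (n = 10), 0.53 in anterior C57BL/6J (n = 6) and -0.098 in both, as a description of libraries that share processing. Markers of dendritic and B cells, which carry class II, were scarce, at 0.555 to 20.9 CPM summed over 8 genes in B6D2F1N and 1.91 to 14.7 CPM in C57BL/6J. Of these 8 genes 5 averaged under 0.5 CPM. After subtraction of group means over the 35 libraries, this list correlated at r = 0.483, 0.338, 0.517 and 0.462 with H2-Aa, H2-Ab1, H2-Eb1 and Cd74. The choroid plexus and ependymal list did so at 0.238, 0.193, 0.19 and 0.284, and the border macrophage list at 0.151, 0.228, -0.0567 and 0.271. Border macrophage markers summed to 2.1 to 18.2 CPM over 7 genes. The part of these cells in the class II values was not tested.

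Within each housing the strain differences were tested again with edgeR, in the same strata as in the study. In standard anterior libraries 0 of 10 members were called where 0.37% of 24305 genes were; 5 members had an unadjusted p under 0.05 in edgeR (H2-K1, H2-Q4, H2-Ea-ps, B2m and Cd74), as did 2187 genes, and DESeq2 called 1 member, H2-Q4, among 257 genes. In standard posterior libraries 0 of 9 tested members were called where 0.373% of 25171 genes were; 5 members (H2-K1, H2-D1, H2-Q4, H2-Ab1 and B2m) and 2605 genes had such a p, and DESeq2 called H2-K1 and H2-Q4 among 392 genes. In enriched anterior libraries, with 2 C57BL/6J mice, 0 of 9 were called where 0.0639% of 23459 genes were; H2-D1, H2-Q4 and 1016 genes in all had such a p, and DESeq2 called 1 member, H2-Q4, among 137 genes. In enriched posterior libraries 0 of 10 were called where 0.394% of 25640 genes were; H2-Q4, H2-Ea-ps and 2336 genes in all had such a p, and DESeq2 called 0 members and 342 genes.

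The H2-K1 difference was below 0 in all 4 of these comparisons, at -0.67 (SE 0.21) in standard anterior, -1.02 (SE 0.26) in standard posterior, -0.36 (SE 0.30) in enriched anterior and -0.44 (SE 0.23) in enriched posterior libraries on the log2 scale. H2-Q4 was above 0 in all 4, at 3.52 (SE 1.00), 3.58 (SE 1.04) and 1.64 (SE 0.74) where both strains had counts, and at least 17.6-fold higher in enriched anterior libraries, where C57BL/6J had none. B2m was below 0 in all 4, from -0.57 (SE 0.23) to -0.16 (SE 0.20). In standard posterior libraries every hybrid lay below every C57BL/6J mouse for B2m, 60.5 to 132 CPM against 145 to 179 CPM, with exact permutation p = 0.0159, the smallest that 4 against 5 mice can give. The same comparison gave exact permutation p = 0.0317 for H2-K1 and for H2-D1 and 0.0159 for H2-Q4 (n = 4 and 5).

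In edgeR the class II genes and Cd74 had opposite signs in the 2 housings of the posterior portion, while the difference in mean log2 CPM of Cd74 was above 0 in both (0.16 in standard and 0.32 in enriched housing). In standard posterior libraries the log2 differences were -2.65 (SE 1.58) for H2-Aa, -1.88 (SE 0.85) for H2-Ab1, -2.49 (SE 1.40) for H2-Eb1 and -1.22 (SE 0.77) for Cd74. In enriched posterior libraries they were 2.13 (SE 1.32), 1.24 (SE 0.72), 1.37 (SE 0.99) and 1.26 (SE 0.81) in the same order, and 0.73, 0.27, 0.31 and 0.16 without B6D2F1N enriched mouse 3. None passed, and the signs of the standard posterior values changed without 1 library, C57BL/6J standard mouse 1, to 1.35, 0.17, 0.97 and 1.16. In it H2-Aa was 11.6 CPM, against 0, 0 and 0.558 CPM in the other C57BL/6J libraries of the group.

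**Figure D4:**
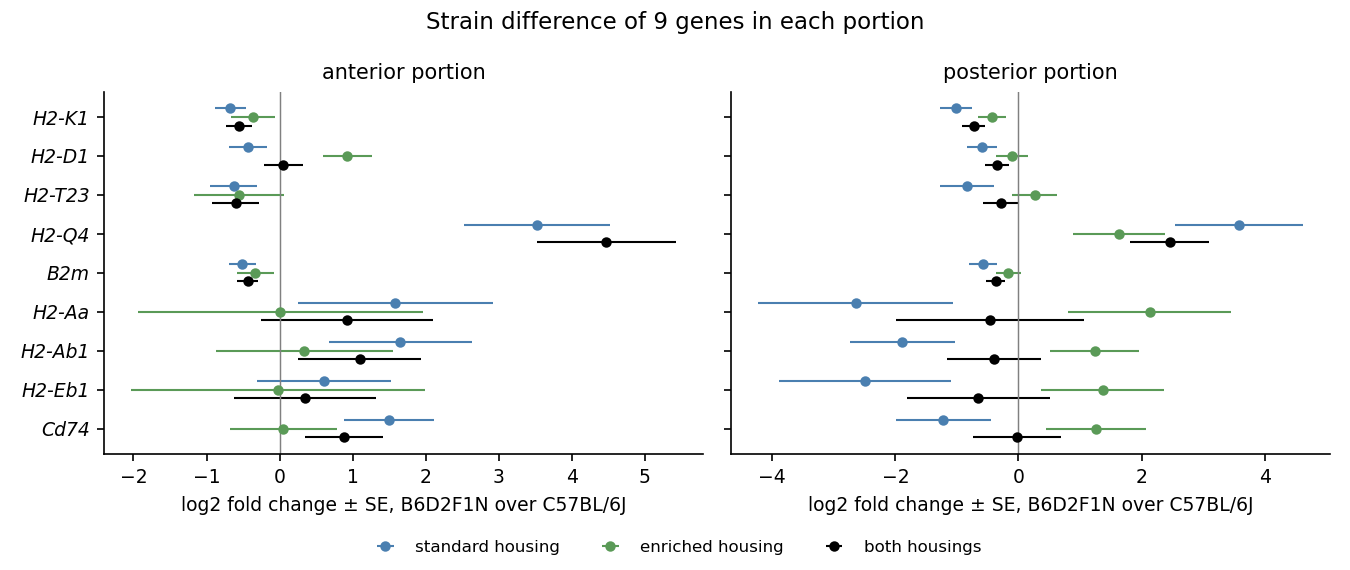
Log2 difference between the strains (B6D2F1N over C57BL/6J) of 9 members in edgeR, with bars of 1 standard error, for each portion in standard housing, in enriched housing and over both; H2-Ea-ps, and H2-Q4 in enriched anterior libraries, are not drawn because C57BL/6J had 0 counts. H2-K1 and B2m lie below 0 and H2-Q4 above 0 in every comparison drawn, while H2-Aa, H2-Ab1, H2-Eb1 and Cd74 carry wide bars and lie below 0 in standard posterior and above 0 in enriched posterior libraries.

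The second question was whether the portions differ within a mouse, with mouse as a block. In C57BL/6J (6 mice with both portions) 1 of 9 tested members was called, H2-T23, where 3.64% of 25751 genes were. In B6D2F1N (10 mice) 1 of 10 was called, H2-D1, where 4% of 27761 genes were. A single member passed in each strain, and the member medians, without H2-Ea-ps, were -0.05 in C57BL/6J (all genes 0.013) and -0.22 in B6D2F1N (all genes 0.15).

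H2-T23 was lower in the posterior library of all 6 C57BL/6J mice, at a mean of 6.78 ± 1.15 CPM (SD) against 16.3 ± 3.63 CPM in the anterior library. The ranges did not overlap: no C57BL/6J posterior library exceeded 8.34 CPM and no anterior one fell below 13.0 CPM. The log2 difference, posterior over anterior, was -1.25 (SE 0.26, adjusted p = 0.00747), and it was -1.12 (adjusted p = 0.0541) without C57BL/6J standard mouse 4. In B6D2F1N the H2-T23 mean was 5.17 CPM posterior against 10.4 CPM anterior, lower in 8 of 10 mice, with a log2 difference of -0.98 (SE 0.39, adjusted p = 0.215). The difference between the strains in this step was 0.27 (SE 0.52, adjusted p = 1). In C57BL/6J 6 of 7 endothelial markers (median -0.24), 9 of 10 microglial markers (median -0.22), 6 of 7 border macrophage markers (median -0.55) and 13 of 14 interferon response genes (median -0.26, 1 called) lay below 0 in the same comparison. Larger steps were those of choroid plexus and ependymal markers, 5 of 7 called higher (median 4.27). Of 5 excitatory neuron genes, Slc17a7 (-1.22) and Neurod6 (-2.31) were called lower and 1, Slc17a6, was called higher (median -0.55). Of 5 meningeal fibroblast markers 1, Dcn, was called higher (median 0.24). The part of these genes in the H2-T23 difference was not tested.

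H2-D1 was lower in the posterior library of all 10 B6D2F1N mice, 98.6 ± 32.6 against 149 ± 46.8 CPM. The groups overlapped across mice, yet each mouse fell. The log2 difference was -0.61 (SE 0.14, adjusted p = 0.0148), -0.54 (adjusted p = 0.0482) without the mouse with 0 Xist counts, and -0.59 (adjusted p = 0.0778) without the mouse block. In C57BL/6J it was -0.17 (SE 0.26, adjusted p = 0.879), lower in 4 of 6 mice, and the strains' steps differed by -0.44 (SE 0.29, adjusted p = 1). Endothelial markers moved with the portion in hybrids, at a median summed level of 432 CPM anterior (323 to 680) and 302 CPM posterior (212 to 491), with 7 of 7 markers below 0 and none called. Microglial markers did so too, at 933 CPM (665 to 1196) and 681 CPM (533 to 954), with 10 of 10 below 0 and 2 called. Larger steps in the same comparison were those of choroid plexus and ependymal markers, 6 of 7 called higher (median 6.16). Of 5 excitatory neuron genes 3 were called lower and 1 higher (median -0.62). Of 5 meningeal fibroblast markers 1 was called higher (median 1.08). The part of these markers in the H2-D1 difference was not tested.

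H2-K1 did not pass in either strain: it was higher in the posterior library of 4 of 6 C57BL/6J mice (log2 difference 0.07, SE 0.16) and lower in 6 of 10 B6D2F1N mice (-0.14, SE 0.16). B2m gave -0.35 (SE 0.15, adjusted p = 0.32) in C57BL/6J, lower in 5 of 6 mice, and -0.21 (SE 0.14, adjusted p = 0.518) in B6D2F1N, lower in 7 of 10. Cd74, H2-Aa, H2-Ab1 and H2-Eb1 had standard errors of 0.64 to 1.90 in these fits, and H2-Ea-ps 2.19 in B6D2F1N, so only a several-fold step could have passed.

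**Figure D5:**
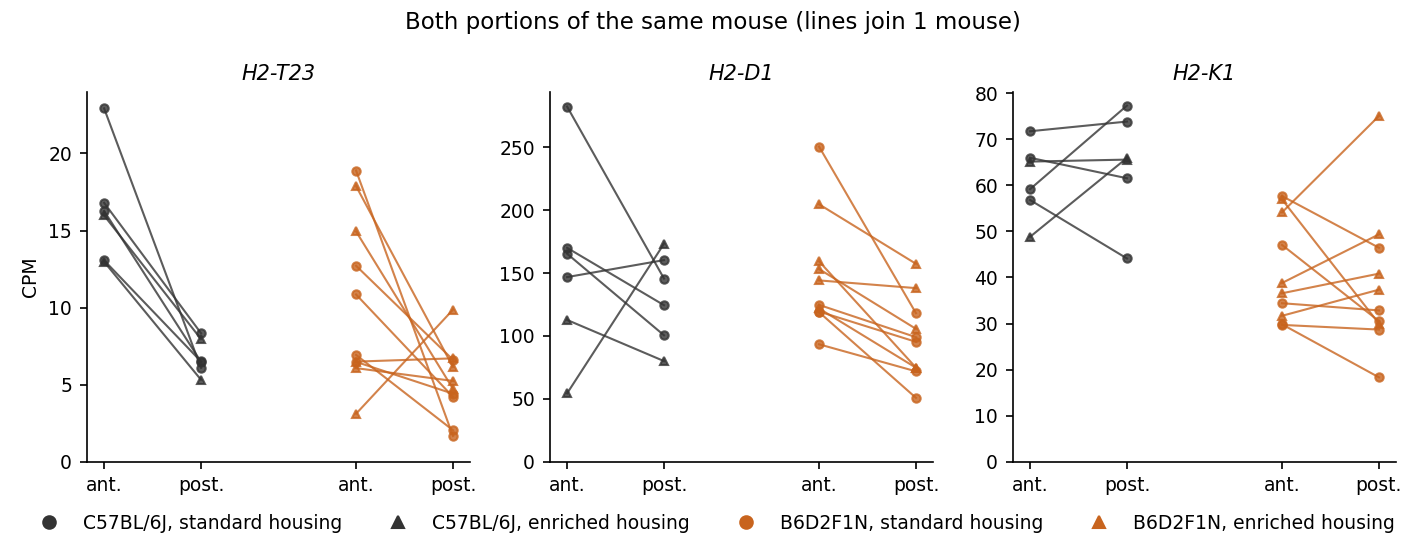
CPM of H2-T23, H2-D1 and H2-K1 in the anterior and posterior library of each mouse, joined by a line, by strain. Every C57BL/6J line falls for H2-T23 and every B6D2F1N line falls for H2-D1, while lines of H2-K1 go both ways.

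Whether the step between portions depended on strain was tested over all 16 mice with both libraries. By edgeR 0 of 10 members and 0% of 29437 genes were called, 0 members and 871 genes had an unadjusted p under 0.05, and DESeq2 called 0 members and 5 genes. Of the members H2-Q4 had the log2 difference of largest absolute size, -1.63 (SE 1.45).

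The third question was whether housing changes these genes. In C57BL/6J anterior libraries 0 of 9 members were called by edgeR and 0% of 22865 genes; H2-D1 and 1418 genes in all had an unadjusted p under 0.05, and DESeq2 called 0 members and 100 genes. In C57BL/6J posterior libraries 0 of 9 were called where 0.0163% of 24526 genes were, 0 members and 2515 genes had such a p, and DESeq2 called 0 members and 319 genes. In B6D2F1N anterior libraries 0 of 10 members and 0% of 24639 genes were called by edgeR; H2-Ea-ps, Cd74 and 1553 genes in all had such a p, and DESeq2 called 0 members and 8 genes. In B6D2F1N posterior libraries 0 of 10 members and 0% of 26028 genes were called by edgeR; H2-Ea-ps, H2-Aa, H2-Ab1, H2-Eb1, Cd74 and 1716 genes in all had such a p, and DESeq2 called 0 members and 14 genes.

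In those B6D2F1N posterior libraries all 9 members other than H2-Ea-ps lay above 0 with enrichment (median 0.77, all genes 0.025). H2-Ab1 was 3.58, 3.27, 3.37, 3.16 and 2.59 CPM in standard housing and 14.2, 4.17, 42.3, 6.53, 2.73 and 4.5 CPM in enriched housing. One enriched library, mouse 3, was far above the rest, and the groups overlapped at the lowest enriched value. The H2-Ab1 log2 difference was 1.94 (SE 0.62, adjusted p = 0.752). H2-Eb1 gave 3.14 (SE 1.16), H2-Aa 3.08 (SE 1.34) and Cd74 1.92 (SE 0.74), all with the same adjusted p. Without enriched mouse 3 these were 1.00 for H2-Ab1 (adjusted p = 0.843), 2.09 for H2-Eb1, 1.71 for H2-Aa and 0.83 for Cd74. In the same comparison 12 of 14 interferon response genes (median 0.47), 6 of 7 border macrophage markers (median 0.68), 5 of 5 meningeal fibroblast markers (median 1.10) and 7 of 7 choroid plexus and ependymal markers (median 0.73) lay above 0, with none called. The 2 enriched libraries with the most Cd74, 106 and 33.7 CPM, were also the ones with the most choroid plexus and ependymal marker RNA, 14194 and 13863 CPM against at most 4519 CPM in the other 9 hybrid posterior libraries. Meningeal fibroblast markers summed to 47.0 to 90.2 CPM in 4 of 5 standard libraries, to 1677 CPM in standard mouse 1, and to 431 to 1117 CPM in the 6 enriched libraries. The part of these markers in the result was not tested.

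H2-D1 in the anterior portion of C57BL/6J was 147, 282, 165 and 170 CPM in standard housing and 113 and 54.4 CPM in enriched housing, with no overlap. With 2 enriched mice the log2 difference of -1.20 (SE 0.34) had adjusted p = 0.599. In B6D2F1N the same difference was 0.14 (SE 0.25, adjusted p = 1). The strain difference was tested for dependence on housing in each portion: by edgeR 0 of 10 members were called in either, with 0% of 26353 genes anterior and 0% of 27871 genes posterior. An unadjusted p under 0.05 was found for H2-D1, H2-Q4 and 1576 genes in all anterior and for H2-Aa, H2-Ab1, H2-Eb1 and 2335 genes in all posterior, and DESeq2 called 0 members in both. The anterior H2-D1 interaction was 1.33 (SE 0.46, adjusted p = 0.814).

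Genes that work with the members were read from lists. Of 14 genes for class I peptide loading (peptide transporters, immunoproteasome subunits and chaperones), 0 were called between strains in either portion by edgeR, with 4 above and 10 below 0 anterior (median log2 difference -0.15) and 6 above and 8 below posterior (median -0.06). Of 14 interferon response genes 0 were called in either portion, with 9 below 0 posterior (median -0.13). Of 9 other class II genes tested, which include the peptide exchange factors and the class II transactivator, 0 were called (median 0.52 anterior and -0.03 posterior). The 5 class II peptide processing genes gave 0 calls, with medians of -0.10 and -0.14. All these medians can be set against 0.0046 and 0.023 over all genes. Choroid plexus and ependymal markers lay above 0 in 7 of 7 in both portions, with medians of 1.75 each. Of these Kl, a choroid plexus gene, was the 1 marker called between strains (2.30, adjusted p = 0.0219, posterior).

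Between portions other list genes were called. In C57BL/6J, H2-M3, a class I gene that presents formylated peptides, fell by 1.07 (SE 0.26, adjusted p = 0.0272) and Bst2, an interferon-induced membrane protein, fell by 1.00 (SE 0.26, adjusted p = 0.0376) from anterior to posterior on the log2 scale, each the 1 gene called of its list. In B6D2F1N the lysosomal proteases Lgmn (-0.60, adjusted p = 0.00413), Ctsl (-0.53, adjusted p = 0.0227) and Ctsb (-0.48, adjusted p = 0.03) fell, 3 of 5 class II processing genes. Class I peptide loading genes gave 0 of 14 in either strain by edgeR. Choroid plexus and ependymal markers rose in the posterior portion, 5 of 7 in C57BL/6J and 6 of 7 in B6D2F1N. Of the other markers, Dcn of meningeal fibroblasts rose by 5.80 in C57BL/6J and 2.97 in B6D2F1N, Slc17a7 and Neurod6 of excitatory neurons fell by 1.32 and 1.70 in B6D2F1N, and Slc17a6 rose by 1.58 in C57BL/6J and 1.38 in B6D2F1N. In B6D2F1N, Rbfox3 (-0.56) and the microglial genes Aif1 (-0.90) and Trem2 (-0.63) fell.

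Around the members, the stretch chr17:33996017-37483552, 3.49 Mb from H2-K1 to the end of the class I genes, held 165 genes tested between strains in the anterior and 170 in the posterior portion. Of these 5 were called in each, 3.03% and 2.94%, against 0.615% and 0.858% of all genes. All were higher in hybrids, as were 144 of the 162 and 202 of the 239 genes called overall. Among the 99 genes of the stretch with at least 1 CPM, 3 were called anterior and 0 posterior, where 0.766% of 15671 and 0.961% of 16135 genes at that level were. Those called anterior over all tested genes of the stretch were Gm18733, H2-Q4, H2-Q10, Gm11127 and Gm10499, and the posterior ones Stk19-ps1, Gm18733, Gm11127, Gm8810 and Gm10499. The median log2 difference of the stretch was 0.01 anterior and -0.05 posterior, against 0.0046 and 0.023 over all genes. Haplotype d reads of other genes in the hybrid counts of the called genes were not tested for.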

How the data were processed

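RNA of laser-captured basolateral amygdala cells was sequenced as single reads of 72 bases from polyA-selected, low-input libraries. The authors trimmed reads with Trimmomatic 0.38, aligned them with HISAT2 2.1.0 to GRCm38 and counted them per gene with HTSeq 0.11.2. The deposited values are these raw counts, whole numbers per gene and library. The annotation release and the strand setting are not given in the sources used here. Reads without a unique alignment are not in the counts, which can lower genes with near copies or with alleles that differ from the reference.

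Groups were taken from the labels, as strain, housing and portion. Counts were tested with edgeR 4.0.16 in R 4.3.3 (quasi-likelihood F test, TMM scaling, a summed count of 10 or more per gene in the libraries fitted, Benjamini-Hochberg adjustment over all genes tested). Standard errors are the absolute log2 difference divided by the square root of F. CPM were scaled by TMM over all 35 libraries, and log2 CPM used a prior count of 2. Exact permutation and Fisher's exact tests were two-sided, over mice, with SciPy 1.17.1. They were run for members alone, so no share of all genes stands beside their counts. Portions were compared with mouse as a block, because the labels give the same animal for both libraries. The 2 libraries of a mouse deviated together only weakly (median correlation of deviations from group means 0.0481, range -0.105 to 0.222, 16 mice, 16022 genes). Samples of a group are separate animals. The study kept mice of a strain in shared cages and gave playground access by cage. Cage was not part of any test, so mice that shared a cage were treated as independent.

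The members and gene lists were chosen with earlier results of these data known. Named genes are the 10 members and list genes that passed in a strain, portion or housing comparison. Also named are the 5 genes most like H2-K1 and Cd74, and genes called in the stretch around the members. Near copies of members, genes that overlap them, and Xist are named too. Alternatives were DESeq2 1.42.0, its size factors, other minimum counts, no housing term, no mouse block and each mouse left out. The fit without the mouse with 0 Xist counts and the permutation tests within a housing were added after seeing the data. The tests were tested on simulated data. Near copies were found by aligning windows of 72 bases, in steps of 1 base, with bwa 0.7.19 at up to 2 mismatches, and coding sequences were aligned with MAFFT 7.526. Of 52636 gene identifiers, 52403 matched the GENCODE annotation used for positions. No pair of libraries among 595 held the same counts. Counting intervals and floors cover counting error only.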

Additional observations from a re-analysis of the deposited data

Results flagged for a closer look

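In 66 groups of 4 or more libraries, each for 1 member, 17 had a highest library that stood apart from the rest by Dixon's criterion. The criterion's nominal chance rate is about 1 in 20. The class II genes and Cd74 moved together from library to library, and the rate for such values was not measured. Of these 17, 15 were class II genes or Cd74, and they fell on 4 libraries. B6D2F1N enriched posterior mouse 3 stood apart for H2-Ea-ps (4.189 CPM), H2-Aa (16.56 CPM), H2-Ab1 (42.31 CPM), H2-Eb1 (18.04 CPM) and Cd74 (105.7 CPM). C57BL/6J standard posterior mouse 1 stood apart for H2-Aa (11.61 CPM), H2-Ab1 (39.48 CPM), H2-Eb1 (12.02 CPM) and Cd74 (61.87 CPM). C57BL/6J standard anterior mouse 3 stood apart for H2-Aa (4.798 CPM), H2-Ab1 (12.93 CPM), H2-Eb1 (5.574 CPM) and Cd74 (29.84 CPM). B6D2F1N enriched anterior mouse 4 stood apart for H2-Aa (3.048 CPM) and H2-Eb1 (4.313 CPM). Choroid plexus and ependymal markers summed to 14194, 1470, 9.00 and 17.1 CPM in these 4 libraries, in the same order.

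B6D2F1N standard anterior mouse 1, the mouse with 0 Xist counts, stood apart for the class I genes H2-D1 (250.5 CPM, next highest 125 CPM) and H2-Q4 (4.469 CPM, next highest 2.02 CPM). Its H2-K1 value, 57.7 CPM, was also the highest of its group.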

How the results depend on the processing

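In the fits across all genes between strains, B2m and H2-T23 kept direction and side of the threshold in the alternatives to each fit, and H2-K1 and H2-Q4 kept direction. The mean log2 CPM difference of H2-T23 in the posterior portion was 0.26 within enriched housing and -0.32 over both. The cause of the following changes was not tested. With DESeq2, members called were 1 in standard anterior, 2 in standard posterior, 1 in enriched anterior and 2 in posterior libraries of both housings (0 in each by edgeR), while all genes called were 257, 392, 137 and 532 against 90, 94, 15 and 239 by edgeR. Without the mouse with 0 Xist counts they were 1 in standard posterior (H2-K1, adjusted p = 0.0498), 0 in anterior libraries of both housings (1 with it) and 1 in posterior ones. Leaving out 1 mouse at a time gave 0 to 1 in these 3 comparisons and 0 to 1 for portions in C57BL/6J (0 without C57BL/6J standard mouse 4). With no minimum count, housing in C57BL/6J anterior libraries gave 1 (H2-D1). Exact tests within enriched housing gave 0 members anterior, where 2 against 5 mice cannot reach 0.05 (smallest p 0.0952), and 1 posterior, against 4 and 3 over both housings. Within standard housing they gave 3 anterior (without H2-T23) and 4 posterior (with H2-D1). These exact tests were not adjusted and were run for members alone, so whether such counts are unusual among all genes was not tested. The paired portion comparison in B6D2F1N, made with a replicate block of mouse, gave 1 member with and 0 without the block, and no other call changed with it.

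Signs of several log2 differences changed, both small ones and larger ones of the class II genes and Cd74. H2-Eb1 in enriched anterior libraries was -0.02, and 0.0032 with DESeq2 and 0.0014 with its size factors. Over both housings, H2-D1 anterior was -0.11 without the mouse with 0 Xist counts and -0.049 without the housing term. Posterior H2-Aa was 0.0094 and 0.28, Cd74 0.15 and 0.35 under the same 2 changes, and H2-Eb1 0.20 without the housing term. With 1 mouse left out, standard posterior values ran from -3.24 to 1.35 for H2-Aa, -2.28 to 0.17 for H2-Ab1, -3.05 to 0.97 for H2-Eb1 and -1.59 to 1.16 for Cd74, each highest without C57BL/6J standard mouse 1. Enriched anterior values ran from -1.21 to 0.82 for H2-Aa, -0.30 to 0.83 for H2-Ab1, -2.31 to 0.43 for H2-Eb1 and -0.46 to 0.79 for Cd74, and enriched posterior H2-D1 from -0.27 to 0.13. Over both housings, anterior values ran from -0.21 to 0.25 for H2-D1 and -0.52 to 0.66 for H2-Eb1, and posterior values from -1.06 to 1.81 for H2-Aa, -0.85 to 0.75 for H2-Ab1, -1.15 to 1.19 for H2-Eb1 and -0.55 to 1.21 for Cd74. H2-Ea-ps and H2-Q4 rest on few counts, and how depth bears on either was not tested.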
